A study of Saccharomyces cerevisiae BY4741 with 8 samples.

Results

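The genes described here are 10 members of the glucose uptake system of the budding yeast *Saccharomyces cerevisiae*, the hexose transporter genes *HXT1* (YHR094C), *HXT2* (YMR011W), *HXT3* (YDR345C), *HXT4* (YHR092C), *HXT5* (YHR096C), *HXT6* (YDR343C), *HXT7* (YDR342C) and *HXT8* (YJL214W) and the glucose sensor genes *SNF3* (YDL194W) and *RGT2* (YDL138W). They were chosen by gene identifier, 10 of 5782 genes in the files, and all 10 passed the filter on low counts that left 5506 genes for testing. The study asked how deletion of *YRR1*, which encodes a zinc finger transcription factor of multidrug resistance, alters the response of yeast to vanillin, a phenolic aldehyde that inhibits growth. Poly(A) RNA was sequenced from the laboratory strain BY4741 (*MATa, his3Δ1 leu2Δ ura3Δ* with a deletion in methionine synthesis) and from its deletion strain BY4741(*yrr1*Δ), each grown at 30°C in SD medium with 20 g/L glucose or in SD with 5 mM vanillin. The concentration is that of the labels, while column headers of the authors' comparison tables, which were not used, name 6 mM. Cultures began at an OD600 of 0.2 and were harvested in log phase at an OD600 of 1.6 to 2.0. Each of the 4 groups had 2 libraries, described in the methods as biological duplicates. In BY4741(*yrr1*Δ) the gene was replaced by homologous recombination with a *KanMX* cassette and selected on G418, so both strains carry the same auxotrophies and only the deletion strain carries the cassette.

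Glucose enters yeast by facilitated diffusion through the Hxt proteins, which differ in affinity, and cells express different members as the glucose level changes. Snf3 and Rgt2 resemble transporters but act as sensors in the plasma membrane. Their signal leads to the loss of the corepressors Mth1 and Std1, after which the repressor Rgt1 no longer silences *HXT* promoters. A separate pathway, in which the kinase Snf1 opposes the repressor Mig1, holds the genes of high-affinity transporters down when glucose is plentiful.

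The libraries held 2195324 to 2453837 expected counts. *YRR1* had 73 to 100 counts in BY4741 and 0 to 2 in the deletion strain. *LEU2* and *URA3* had 0 to 2 counts, *MET17* had 0 to 9, and *HIS3* had 51 to 181 counts (the *his3Δ1* allele can leave part of the transcript). The *MATa* genes *STE2*, *STE6* and *BAR1* had at least 483 counts in every library, against at most 35 for the *MATalpha* genes *STE3*, *MF(ALPHA)1* and *MF(ALPHA)2*. The median log2 fold change of all genes tested lay between -0.02 and 0.01 in the comparisons below. In bulk RNA a lower level in each cell and fewer cells that express a gene cannot be told apart.

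*HXT6* and *HXT7* have to be read as a pair, because their coding sequences are almost the same. In the R64 reference they are neighbours on the minus strand of chromosome IV, *HXT7* from 1154216 to 1155928 and *HXT6* from 1159608 to 1161320. Each coding sequence has 1713 bases, and the pair differs at 3 of them. Counted from 1 at the start codon, with the *HXT6* base first and the *HXT7* base last, these are T1632C, G1666A and T1677C. Of the 1614 windows of 100 bases along *HXT6*, 1532 (94.9%) occur unchanged in *HXT7*, and the 84 bases before the start codons are identical as well. The stretch that holds all 3 differences is shown because only reads that overlap it separate the coding sequences of the pair. It spans coding positions 1620 to 1690, at chrIV:1159631-1159701 for *HXT6* and chrIV:1154239-1154309 for *HXT7*, read 5′ to 3′ on the minus strand, and capitals mark the bases that differ.
HXT6: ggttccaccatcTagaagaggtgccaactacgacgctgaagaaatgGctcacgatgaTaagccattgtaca
HXT7: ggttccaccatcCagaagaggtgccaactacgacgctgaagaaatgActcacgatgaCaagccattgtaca
*HXT3*, which lies next to the pair on chromosome IV from 1162957 to 1164660, shares 58 of these 100-base windows with each of them and 80.4% of aligned coding positions with *HXT6*. *HXT1* shares 20 such windows with *HXT5*, its neighbour on chromosome VIII. The split of reads between *HXT6* and *HXT7* is therefore an estimate, and the sum of their counts is given beside the single genes.

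The upstream region of *HXT3* and *HXT1* is shown because these genes held the most matches among the members to the letters of the Rgt1 binding motif. CGGANNA was searched on both strands in the 1000 bases before each start codon, without trimming at neighbouring genes, and overlapping matches were counted. Of 6015 such windows in the genome, 66.4% held at least 1 match. *HXT3* held 9 and *HXT1* held 8, numbers reached by 0.017% and 0.033% of windows. The stretch printed for *HXT3* (chrIV:1164970-1165205, 236 bases, minus strand) holds the 7 matches nearest to its start codon and that for *HXT1* (chrVIII:292850-293115, 266 bases, minus strand) the nearest 4, in capitals on whichever strand they lie.
HXT3: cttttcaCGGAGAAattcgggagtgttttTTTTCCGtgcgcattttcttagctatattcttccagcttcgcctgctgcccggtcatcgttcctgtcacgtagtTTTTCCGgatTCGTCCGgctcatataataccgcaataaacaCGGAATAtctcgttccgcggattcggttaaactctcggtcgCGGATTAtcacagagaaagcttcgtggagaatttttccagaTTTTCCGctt
HXT1: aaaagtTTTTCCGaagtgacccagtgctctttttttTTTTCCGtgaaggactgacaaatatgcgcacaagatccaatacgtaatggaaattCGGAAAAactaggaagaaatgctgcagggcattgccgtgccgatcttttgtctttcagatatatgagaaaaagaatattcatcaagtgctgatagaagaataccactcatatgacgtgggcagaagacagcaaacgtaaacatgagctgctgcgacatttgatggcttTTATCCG
*HXT8* held 6 matches, *HXT5* held 4, *HXT2*, *HXT4* and *HXT6* held 3 each, *HXT7* held 2, and neither sensor gene held any. Letters of the Mig1 motif (CCCCGC or the form CCCCAC, and likewise CCCCGG or the form CCCCAG, on either strand, with overlapping matches counted) were present in 41.8% of all windows. *HXT2* and *HXT4* held 4 matches each, as many as in 0.848% of windows, *HXT6* held 3, *HXT1*, *HXT3*, *HXT7* and *SNF3* held 2, *HXT5* and *HXT8* held 1, and *RGT2* held none. The stress response element AGGGG, present on either strand in 54.9% of windows, occurred 5 times before *HXT6*, 4 times before *HXT7*, 2 times before *HXT5*, once each before *HXT1*, *HXT3*, *HXT4* and *RGT2*, and not before the others. These matches describe letters and are not evidence of binding.

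In SD the high-affinity transporter gene *HXT7* and the low-affinity gene *HXT3* had the highest levels per length. Levels are given as FPKM, reads scaled to the length of the transcript and to the size of the library. In BY4741 the mean FPKM was 1039 ± 603 for *HXT7*, 750.3 ± 345 for *HXT3* and 339 ± 140 for *HXT1* (SD, n = 2), and the libraries of *HXT7* and *HXT3* overlapped. *HXT2* (126 ± 47.6), *HXT4* (112 ± 41.3) and *HXT5* (95.5 ± 30.4) followed and overlapped with their neighbours in this order. *HXT6* had 33.9 ± 1.11 FPKM, *RGT2* 24.1 ± 0.842, *SNF3* 10.7 ± 0.785 and *HXT8* 4.76 ± 1.5, with no overlap between neighbours. In BY4741(*yrr1*Δ) the order in SD differed only in that *HXT5* stood above *HXT4*, within their spread. With vanillin *HXT3* came first in both strains, at 1770 ± 53.2 FPKM in BY4741 and 2622 ± 1462 in BY4741(*yrr1*Δ), and *HXT4* came next at 338 ± 173 and 270.6 ± 311. *HXT7*, first in SD, had 75.2 ± 6.59 FPKM in BY4741, below *HXT4*, and 114 ± 124, below *HXT4* and *HXT2*, in BY4741(*yrr1*Δ), where the libraries of *HXT4*, *HXT2*, *HXT7* and *HXT1* overlapped from each to the next.

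**Figure D1:**
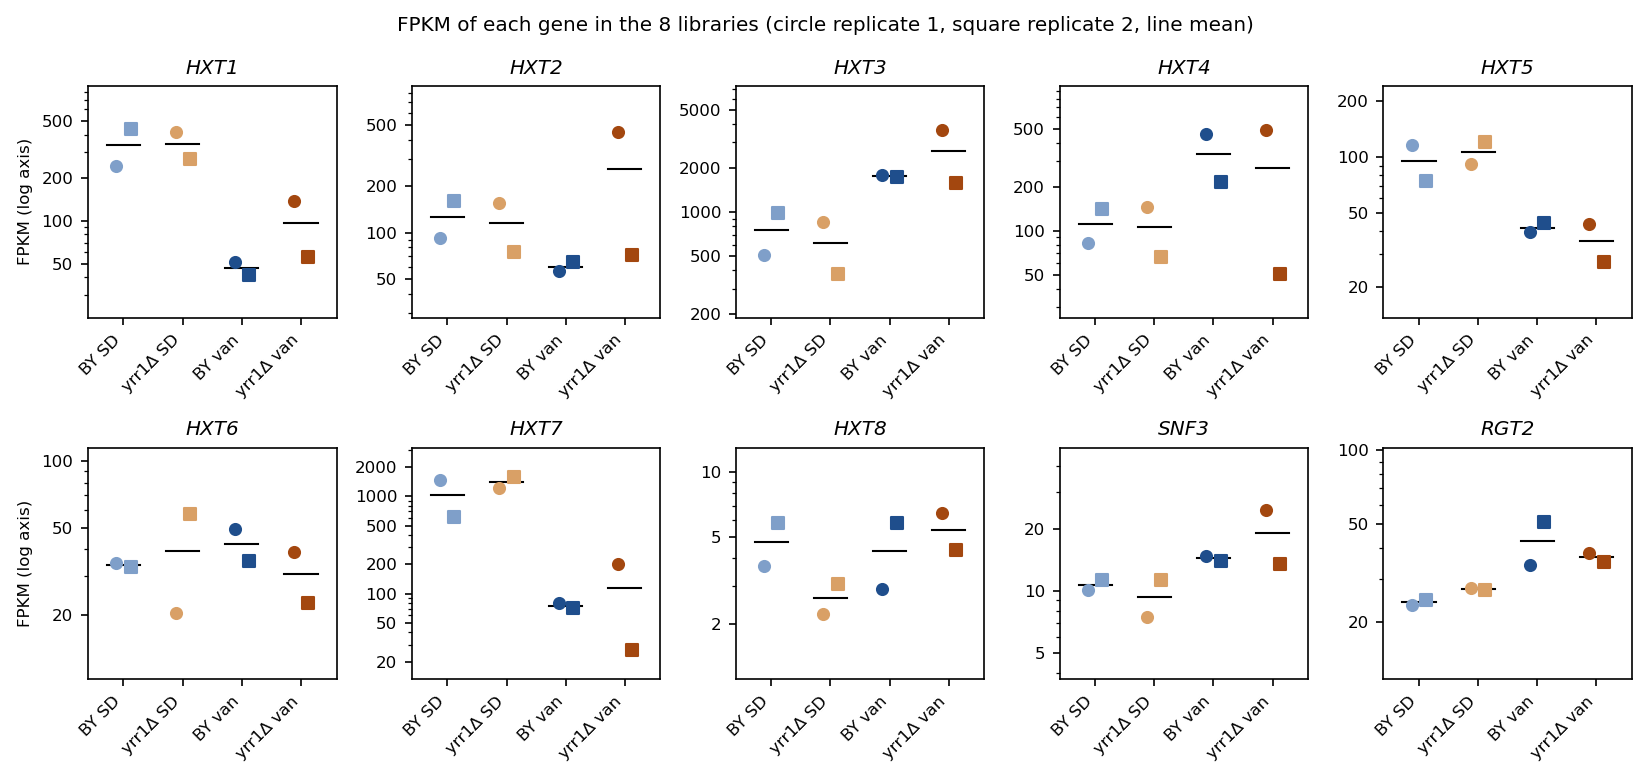
FPKM (log axis) of each of the 10 genes by group, with circles for replicate 1, squares for replicate 2 and a line at the mean of the 2 libraries. BY is BY4741 and van is SD with 5 mM vanillin. All 4 vanillin libraries of *HXT1*, *HXT5* and *HXT7* lie below all 4 SD libraries, and those of *HXT3*, *SNF3* and *RGT2* lie above them. The share of all genes separated in this way was not counted.

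The make-up of the summed FPKM of *HXT1* to *HXT8* differed between the media more than the sum itself. BY4741 had a sum of 2542 and 2458 FPKM in SD, and 2546 and 2209 with vanillin. The deletion strain had 2899 and 2549 FPKM without vanillin and 5021 and 1847 with it. The vanillin values of BY4741(*yrr1*Δ) were the highest and the lowest of all 8 libraries. *HXT7* made up 57.6% and 25.0% of the sum in the SD libraries of BY4741 and 3.14% and 3.19% with vanillin, and 41.7% and 61.9% without and 4.01% and 1.44% with vanillin in the deletion strain. *HXT3* made up 19.9% and 40.4% of the sum in the SD libraries of BY4741 and 71.0% and 78.4% with vanillin, and 29.6% and 14.9% without and 72.8% and 86.0% with vanillin in the deletion strain. For both genes the 4 SD libraries did not overlap with the 4 vanillin libraries.

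**Figure D2:**
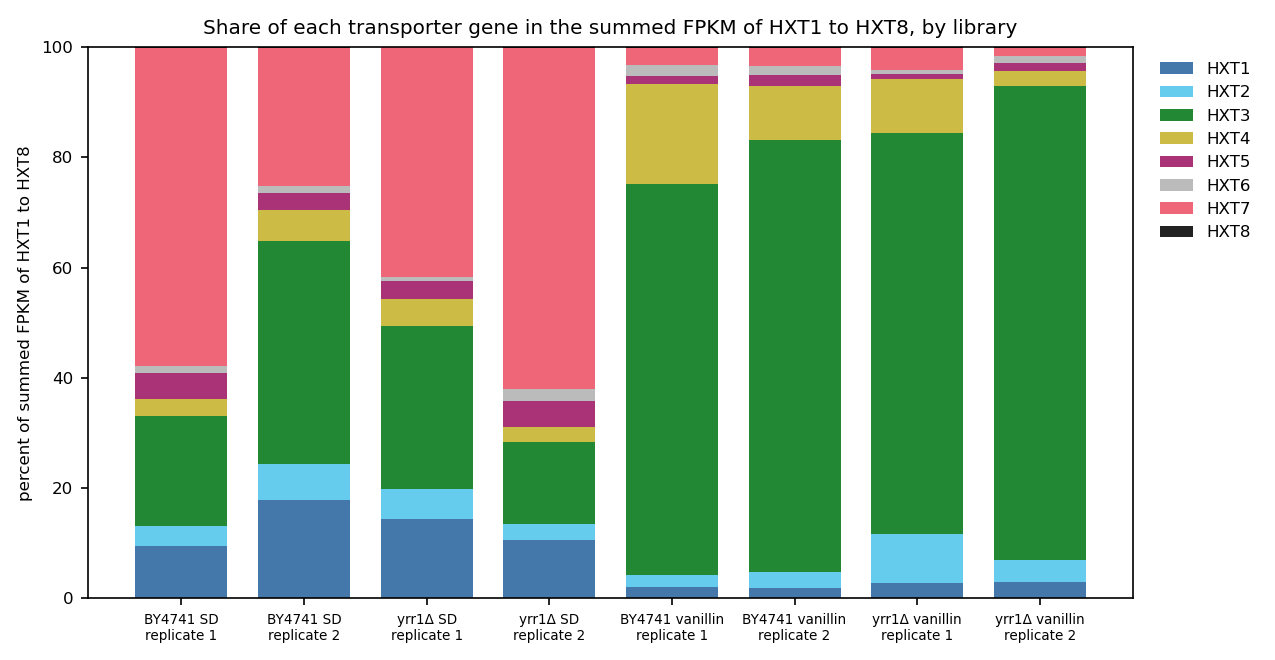
Percent of the summed FPKM of *HXT1* to *HXT8* taken by each gene, 1 bar per library. *HXT7* takes 25.0% to 61.9% in SD and 1.44% to 4.01% with vanillin, *HXT3* takes 14.9% to 40.4% in SD and 71.0% to 86.0% with vanillin, and *HXT8* is too low to be seen.

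The response to vanillin in BY4741 addresses what the aldehyde does to sugar uptake genes when Yrr1 is present. *HXT1*, encoding a low-affinity transporter that high glucose induces, and *HXT7* were lower with vanillin, and these 2 of 10 members passed an FDR of 0.05 in edgeR's quasi-likelihood test, adjusted over all genes by Benjamini-Hochberg. Of all genes tested, 3.14% passed, 2.32% as higher and 0.817% as lower, against 0 members higher and 2 lower. The limits of the study's methods ask for a fold of 2 or more at an FDR no higher than 0.001. Set on edgeR's test, they were passed by 0.182% of genes and 0 members. The paper itself lists *HXT1*, *HXT2*, *HXT3* and *HXT4* as responding to vanillin in both strains. Those calls come from the authors' own comparison, which was not rerun here. For 9 members, all but *HXT8*, the libraries of the 2 media did not overlap in CPM normalised by TMM, as for 54.0% of all genes. At an unadjusted p under 0.05, 5 members and 18.3% of all genes passed in edgeR's test. DESeq2 called 4 members, adding *HXT5* and *RGT2*, and 5.27% of all genes.

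In BY4741(*yrr1*Δ) vanillin gave 4 called members, of which *HXT1*, *HXT5* and *HXT7* were lower and *HXT3* was higher. Among all genes 11.2% passed an FDR of 0.05 in edgeR's test, 4.58% as higher and 6.63% as lower. The study's limits, set on edgeR's test, were met by 0.272% of genes and 0 members. The libraries of the 2 media did not overlap for 7 members, the 4 called and *HXT8*, *SNF3* and *RGT2*, and for 55.1% of all genes. At an unadjusted p under 0.05, 5 members and 29.0% of all genes passed. DESeq2 called 3 members, without *HXT3*, and 12.0% of all genes.

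**Figure D3:**
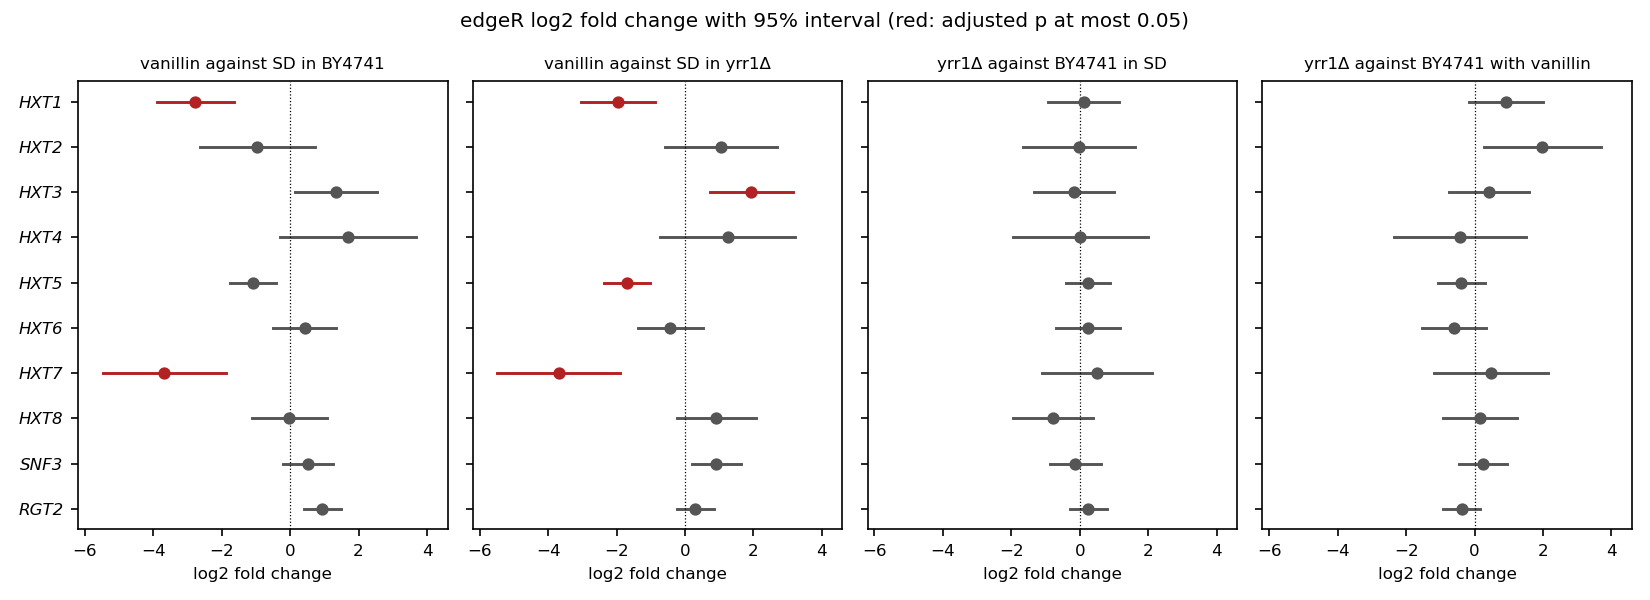
Log2 fold change of each gene in 4 comparisons, with points at edgeR's estimate and bars for the 95% interval, red where the adjusted p is at most 0.05. *HXT1* and *HXT7* are red in both vanillin comparisons, *HXT3* and *HXT5* in BY4741(*yrr1*Δ), and no member in either comparison of strains.

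Of the low-affinity transporters, *HXT1* (chromosome VIII, 290913 to 292625) had 240 and 438 FPKM in the SD libraries of BY4741 and 51.0 and 41.9 with vanillin. In the deletion strain it had 418 and 270.1 FPKM without vanillin and 138 and 55.4 with it. In each strain both vanillin libraries were below both SD libraries. *HXT1* fell by 2.77 ± 0.50 on the log2 scale in BY4741, 6.81-fold lower (SE, adjusted p = 0.021 from edgeR's test). It fell by 1.95 ± 0.48 in BY4741(*yrr1*Δ), 3.88-fold lower (SE, adjusted p = 0.032 from edgeR's test). The call in BY4741 was lost without SD replicate 2 (log2 fold change -2.24, adjusted p = 0.097), vanillin replicate 1 (-2.89, 0.147) or vanillin replicate 2 (-2.66, 0.228) of that strain in edgeR's test, and the adjusted p ran from 1.6e-09 to 0.228 over all alternatives. The call in BY4741(*yrr1*Δ) was lost in edgeR's test without its SD replicate 1 (-1.51, adjusted p = 0.118), its vanillin replicate 2 (-1.41, 0.126) or either vanillin library of BY4741 (-1.96 and -1.96, 0.066 for both), where the range was 3.9e-05 to 0.126. The vanillin response was -2.83 without vanillin replicate 1 of BY4741(*yrr1*Δ). In that strain the call was also lost with only the 4 libraries compared (adjusted p = 0.060 from edgeR's test). With the replicate number as a block it was lost as well (adjusted p = 0.053 from edgeR's test).

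*HXT3* (YDR345C), encoding the other main low-affinity transporter, was higher with vanillin. BY4741 had 507 and 994 FPKM in SD, and 1807 and 1732 with vanillin. The deletion strain had 857 and 379 FPKM without vanillin and 3655 and 1588 with it, and in each strain both vanillin libraries were above both SD libraries. The log2 fold change in BY4741 was 1.34 ± 0.53, with a 95% interval of 0.15 to 2.53, and did not pass (SE, adjusted p = 0.216 from edgeR's test). In BY4741(*yrr1*Δ) *HXT3* rose by 1.94 ± 0.54, or 3.84-fold (SE, adjusted p = 0.049 from edgeR's test). This call lies near the threshold, as DESeq2 gave an adjusted p of 0.052. In edgeR's test the adjusted p was 0.056 without the filter on low counts and 0.083 with only the 4 libraries compared. With the replicate number as a block it was 0.077 in edgeR's test. The call was lost in 9 of 16 alternatives. It was lost in edgeR's test without SD replicate 2 (log2 fold change 1.42, adjusted p = 0.149), vanillin replicate 1 (1.14, 0.246) or vanillin replicate 2 (2.45, 0.053) of BY4741(*yrr1*Δ), or without either vanillin library of BY4741 (1.94, 0.092 for both). Without SD replicate 1 of the deletion strain the log2 fold change was 2.76.

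*HXT2* and *HXT4*, encoding transporters of higher affinity that are induced at low glucose, did not pass in either strain. *HXT2* (chromosome XIII, 288079 to 289704) had 92.1 and 159 FPKM in the SD libraries of BY4741 and 56.1 and 64.2 with vanillin. Values in the deletion strain were 156 and 75.2 FPKM without vanillin and 447 and 71.9 with it. The media did not overlap in BY4741 and did in BY4741(*yrr1*Δ), where vanillin replicate 1 was the highest of the 8 libraries. The log2 fold change of *HXT2* with vanillin was -0.96 ± 0.74 in BY4741 (SE, adjusted p = 0.518 from edgeR's test) and 1.04 ± 0.72 in BY4741(*yrr1*Δ) (SE, adjusted p = 0.373 from edgeR's test). The latter was -0.90 without vanillin replicate 1.

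*HXT4* (chromosome VIII, 287081 to 288811) had 82.3 and 141 FPKM in the SD libraries of BY4741 and 460.3 and 215 with vanillin. Its values in the deletion strain were 145 and 65.6 FPKM without vanillin and 490.5 and 50.7 with it. Vanillin replicates 1 and 2 of the deletion strain were thus the highest and the lowest of all 8 libraries. The log2 fold change with vanillin was 1.69 ± 0.88 in BY4741 (SE, adjusted p = 0.340 from edgeR's test) and 1.25 ± 0.87 in BY4741(*yrr1*Δ) (SE, adjusted p = 0.377 from edgeR's test). The latter was -1.27 without vanillin replicate 1 and 2.11 without vanillin replicate 2.

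Among the members tied to slow growth or glucose derepression, *HXT7*, encoding a high-affinity transporter, fell with vanillin in both strains. Of the 10 members it had the log2 fold change farthest from 0 in both, but in BY4741 without SD replicate 1 that was *HXT1*, at -3.18 against -2.97 for *HXT7*. *HXT7* (YDR342C) had 1466 and 613 FPKM in the SD libraries of BY4741 and 79.9 and 70.5 with vanillin. Its values in the deletion strain were 1207 and 1577 FPKM without vanillin and 201 and 26.6 with it. The 4 vanillin libraries lay below the 4 SD libraries. *HXT7* fell by 3.67 ± 0.80 on the log2 scale in BY4741, 12.7-fold lower (SE, adjusted p = 0.044 from edgeR's test). It fell by 3.69 ± 0.79 in BY4741(*yrr1*Δ), 12.9-fold lower (SE, adjusted p = 0.021 from edgeR's test). The BY4741 call was lost without any 1 of its libraries in edgeR's test, with log2 fold changes of -2.97 (adjusted p = 0.146, without SD replicate 1), -4.16 (0.065, SD replicate 2), -3.74 (0.257, vanillin replicate 1) and -3.61 (0.331, vanillin replicate 2). It was also lost without the filter on low counts (adjusted p = 0.051 from edgeR's test) and with the replicate number as a block (0.064). With only the 4 libraries compared the adjusted p was 0.0042 from edgeR's test. The call in BY4741(*yrr1*Δ) held in every alternative (adjusted p 0.0042 to 0.049), with log2 fold changes of -5.89 without its vanillin replicate 1 and -2.85 without its vanillin replicate 2.

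The near-identical *HXT6*, also a high-affinity transporter gene, did not pass in either strain. BY4741 had 34.7 and 33.1 FPKM in SD, and 49.1 and 35.3 with vanillin. The deletion strain had 20.5 and 57.8 FPKM without vanillin and 38.7 and 22.8 with it. The SD and vanillin libraries of *HXT6* did not overlap in BY4741 and overlapped in BY4741(*yrr1*Δ). Its log2 fold change was 0.42 ± 0.41 in BY4741 (SE, adjusted p = 0.620 from edgeR's test) and -0.42 ± 0.41 in BY4741(*yrr1*Δ) (SE, adjusted p = 0.533 from edgeR's test). Of the expected counts of the pair, *HXT6* was assigned 2.31% (exact 95% interval 1.92 to 2.75) and 5.12% (4.27 to 6.10) in BY4741 in SD. Its share in the SD libraries of the deletion strain was 1.67% (1.32 to 2.10) and 3.53% (3.08 to 4.04). With vanillin it was assigned 38.1% (33.7 to 42.8) and 33.3% (28.6 to 38.3) in BY4741, and 16.1% (13.8 to 18.7) and 46.2% (39.0 to 54.0) in BY4741(*yrr1*Δ). Clopper-Pearson intervals were used, which treat every count of the pair as if it told the genes apart. Only reads over the stretch that differs do so, and the intervals are therefore too narrow. They also cover neither the estimate behind the split nor PCR copies.

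Summed, *HXT6* and *HXT7* had 5278 and 2339 counts in the SD libraries of BY4741, and 448 and 384 with vanillin. The deletion strain had 4417 and 5915 counts without vanillin and 929 and 181 with it. The 4 SD libraries did not overlap with the 4 vanillin libraries. The sum fell by 3.08 ± 0.66 on the log2 scale in BY4741, 8.43-fold lower (SE, adjusted p = 0.043 from edgeR's test). It fell by 3.39 ± 0.67 in BY4741(*yrr1*Δ), 10.5-fold lower (SE, adjusted p = 0.015 from edgeR's test). The drop in the pair is thus seen without the split of shared reads. Without 1 BY4741 library at a time the BY4741 value was -2.41 (adjusted p = 0.154, SD replicate 1), -3.55 (0.056, SD replicate 2), -3.20 (0.238, vanillin replicate 1) and -2.96 (0.329, vanillin replicate 2) in edgeR's test, in a range of adjusted p from 0.0066 to 0.329 over the alternatives. For the deletion strain the log2 fold change of the sum was -5.03 without vanillin replicate 1 and -2.64 without vanillin replicate 2, and the call held in every alternative.

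*HXT5*, encoding a transporter of moderate affinity whose expression is linked to slow growth, had 117 and 74.0 FPKM in the SD libraries of BY4741 and 39.3 and 43.9 with vanillin. Its values in the deletion strain were 92.4 and 121 FPKM without vanillin and 43.4 and 27.2 with it. All vanillin libraries lay below all SD libraries. *HXT5* fell by 1.70 ± 0.30 on the log2 scale in BY4741(*yrr1*Δ), 3.25-fold lower (SE, adjusted p = 0.0098 from edgeR's test). This call was lost only without vanillin replicate 2 of that strain (log2 fold change -1.36, adjusted p = 0.061 from edgeR's test, range over alternatives 5.2e-06 to 0.061), and was -2.14 without vanillin replicate 1. In BY4741 the log2 fold change was -1.08 ± 0.29, with a 95% interval of -1.75 to -0.42, and did not pass (SE, adjusted p = 0.092 from edgeR's test).

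*HXT8*, a member of the family with low expression, had 8 to 25 counts per library. Its FPKM in BY4741 was 3.70 and 5.82 in SD, and 2.88 and 5.80 with vanillin. The deletion strain had 2.23 and 3.05 FPKM without vanillin and 6.47 and 4.37 with it. The media overlapped in BY4741 and did not in BY4741(*yrr1*Δ). Its log2 fold change with vanillin was -0.02 (95% interval -1.11 to 1.08) in BY4741 and 0.92 (-0.23 to 2.07) in BY4741(*yrr1*Δ), neither of which passed (adjusted p = 0.989 and 0.261 from edgeR's test). True changes anywhere within these intervals remain possible.

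In SD the sensor genes were lower in mean FPKM than every transporter gene but *HXT8*, although *RGT2* overlapped *HXT6* in the deletion strain. With vanillin the *RGT2* libraries overlapped those of *HXT5* and *HXT6* in both strains. *SNF3*, encoding the sensor of low glucose, had 10.1 and 11.3 FPKM in the SD libraries of BY4741 and 14.8 and 14.0 with vanillin, and 7.51 and 11.3 without and 24.6 and 13.5 with vanillin in the deletion strain. *RGT2*, encoding the sensor of high glucose, had 23.5 and 24.7 FPKM in the SD libraries of BY4741 and 34.1 and 51.4 with vanillin, and 27.5 and 27.1 without and 38.4 and 35.3 with vanillin in the deletion strain. For both sensors and in both strains the vanillin libraries were above the SD libraries, yet neither gene passed. The log2 fold change of *SNF3* was 0.53 ± 0.32 in BY4741 (SE, adjusted p = 0.410 from edgeR's test) and 0.92 ± 0.32 in BY4741(*yrr1*Δ) (SE, adjusted p = 0.099 from edgeR's test). That of *RGT2* was 0.94 ± 0.24 in BY4741 (SE, adjusted p = 0.076 from edgeR's test) and 0.31 ± 0.24 in BY4741(*yrr1*Δ) (SE, adjusted p = 0.423 from edgeR's test). DESeq2 gave *RGT2* in BY4741 an adjusted p of 0.044, in a range of 0.044 to 0.506 over the alternatives. *SNF3* in BY4741(*yrr1*Δ) passed edgeR's test without vanillin replicate 2 (log2 fold change 1.33, adjusted p = 0.037, range 0.037 to 0.449).

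Deletion of *YRR1* was compared with BY4741 in each medium, to ask whether the transporter genes depend on the factor. In SD, 0.0182% of genes and 0 members passed an FDR of 0.05 in edgeR's test, 0 members and 1.78% of all genes had an unadjusted p under 0.05, and DESeq2 called 0 members and 0.0182% of all genes. Member log2 fold changes ran from -0.78 for *HXT8* (95% interval -1.95 to 0.39) to 0.50 for *HXT7* (-1.11 to 2.10), with an adjusted p of 0.9995 for each. The libraries of the strains did not overlap for 2 members, *HXT8* and *RGT2*, and for 25.7% of all genes. The narrowest interval was that of *RGT2*, -0.30 to 0.81, and the widest that of *HXT4*, -1.95 to 1.99. True differences anywhere within these bounds remain possible.

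With vanillin, 0.618% of genes and 0 members passed between the strains in edgeR's test, 1 member (*HXT2*) and 22.9% of all genes had an unadjusted p under 0.05, and DESeq2 called 0 members and 5.01% of all genes. *HXT2* had the largest difference, 1.98 ± 0.75 on the log2 scale, with a 95% interval of 0.29 to 3.68 (SE, adjusted p = 0.174 from edgeR's test). Its level in vanillin replicate 2 of BY4741(*yrr1*Δ), 71.9 FPKM, was close to the 56.1 and 64.2 FPKM of BY4741, and replicate 1 stood at 447. Without that replicate 1 the difference was 0.04 for *HXT2* and 0.04 for *HXT1*, and without replicate 2 it was 2.78 and 1.46. *HXT1* differed by 0.92 (interval -0.17 to 2.01), *HXT7* by 0.48 (-1.19 to 2.15), *HXT3* by 0.43 (-0.74 to 1.60) and *HXT4* by -0.43 (-2.36 to 1.5). In CPM normalised by TMM the libraries of the strains did not overlap for 0 members and for 57.6% of all genes, and in FPKM they did not overlap for 2 members, *HXT1* and *HXT2*, and for 59.4% of all genes.

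The interaction of strain and vanillin asks whether the vanillin response differed between the strains. In edgeR's test 0.0908% of genes and 0 members passed, 0 members and 20.5% of all genes had an unadjusted p under 0.05, and DESeq2 called 0 members and 3.92% of all genes. The largest member value was that of *HXT2*, 2.00 ± 1.04 on the log2 scale (95% interval -0.34 to 4.34, SE, adjusted p = 0.305 from edgeR's test). It was 0.06 without vanillin replicate 1 of the deletion strain and 2.80 without vanillin replicate 2. For *HXT7* it was -0.02 (interval -2.35 to 2.32), for *HXT1* 0.81 (-0.69 to 2.31), for *HXT3* 0.60 (-1.06 to 2.26) and for *HXT5* -0.62 (-1.55 to 0.32). The calls of *HXT3* and *HXT5* in BY4741(*yrr1*Δ) alone are therefore not shown to differ from BY4741.

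Replicates of a group differed widely for several transporter genes. All 10 members were higher in replicate 1 than in replicate 2 of BY4741(*yrr1*Δ) with vanillin, *HXT4* by 10.3-fold, *HXT7* by 8.0-fold and *HXT2* by 6.63-fold in CPM plus 1, the 5th, 6th and 8th largest of 5506 genes. The difference was 2.66-fold for *HXT1*, 2.48-fold for *HXT3* and 1.17-fold for *RGT2*, the last a size reached by 55.6% of all genes. How many of all genes were higher in replicate 1 of that group was not counted. The shared direction is therefore not shown to be particular to the members. In BY4741 with vanillin the difference was 2.07-fold for *HXT4* and 1.01-fold for *HXT3*. In SD *HXT1*, *HXT2*, *HXT3* and *HXT4* were higher in replicate 2 of BY4741 and in replicate 1 of BY4741(*yrr1*Δ), by 1.75-fold to 2.57-fold, whereas *HXT5* and *HXT7* were higher in the other library of each strain. The median absolute log2 difference between replicates over all genes was 0.20 to 0.31, in the same libraries where those of *HXT4* were 0.81 to 3.37. The glucose-repressed hexokinase gene *HXK1* had 1662 and 681 FPKM in SD in BY4741, and 890 and 1810.2 in the deletion strain, high in the same libraries as *HXT7*. Other glucose-repressed genes named below were divided. *CTT1* and *ADR1* went with *HXK1*, and *GLK1* did so in BY4741 only. *HSP12*, *JEN1* and *ACS1* were higher in the other library of each strain. *HSP12* had 11245 and 13004 FPKM in SD in BY4741, and 18964 and 14671 in the deletion strain. The part of these library differences in the calls above was not tested beyond the fits without each library.

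**Figure D4:**
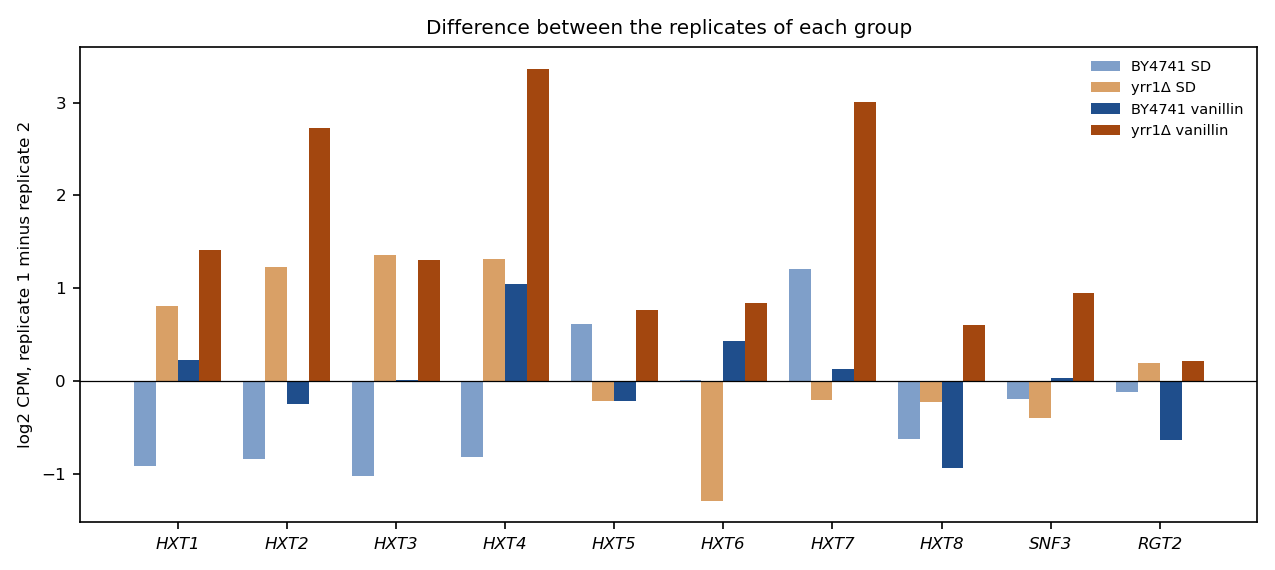
Difference in log2 CPM (counts relative to library size) between replicate 1 and replicate 2 of each group, 1 bar per group and gene, positive where replicate 1 is higher. All 10 bars of BY4741(*yrr1*Δ) with vanillin are above 0, up to 3.37 for *HXT4*, and the bars of *HXT1* to *HXT4* point in opposite directions in the SD libraries of the 2 strains.

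Genes that act on the transporters were read from 5 lists, and no comparison between the lists and the members was tested. Of 13 genes of glucose sensing and the Rgt1 pathway, 0 passed in edgeR's test in any of the 5 comparisons, and their median log2 fold change with vanillin was 0.06 in BY4741 and 0.15 in the deletion strain, against -0.02 and 0.01 for all genes. The largest values were those of *MTH1*, the corepressor that acts with Rgt1. *MTH1* had 28.9 and 26.5 FPKM in the SD libraries of BY4741 and 64.6 and 63.8 with vanillin, and 27.4 and 24.7 without and 160.04 and 31.8 with vanillin in the deletion strain. Its vanillin libraries were above its SD libraries in each strain, with log2 fold changes of 1.32 ± 0.61 and 1.78 ± 0.61 (SE, adjusted p = 0.290 and 0.095 from edgeR's test). Replicate 1 of BY4741(*yrr1*Δ) with vanillin was again the highest library. *RGS2*, a regulator of the glucose receptor pathway of Gpr1 and Gpa2, followed in BY4741 (-1.26, adjusted p = 0.115 from edgeR's test) and *STD1*, the paralog of *MTH1*, in BY4741(*yrr1*Δ) (0.60, adjusted p = 0.073 from edgeR's test).

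Of 16 genes of Snf1-Mig1 glucose repression, 3 rose with vanillin in BY4741 and 1 in BY4741(*yrr1*Δ), and none fell. Of all genes tested, 2.32% passed as higher and 0.817% as lower in BY4741. The shares in the deletion strain were 4.58% and 6.63%. *HXK2*, the main hexokinase on glucose and a partner in repression, had 755 and 681 FPKM in the SD libraries of BY4741 and 1747 and 1614 with vanillin, and 617 and 627 without and 1849 and 1569 with vanillin in the deletion strain. *HXK2* rose by 1.34 ± 0.17 and 1.33 ± 0.17 on the log2 scale (SE, adjusted p = 0.0049 and 0.0036 from edgeR's test), with no overlap between the media. The repressor genes *NRG1* and *NRG2* rose in BY4741 by 1.18 and 1.29 (adjusted p = 0.030 and 0.031 from edgeR's test), and had values of 0.20 and 0.62 in BY4741(*yrr1*Δ) (adjusted p = 0.604 and 0.147 from edgeR's test). The repressor gene *MIG1* itself had log2 fold changes of -0.36 and -0.17 (adjusted p = 0.586 and 0.760 from edgeR's test). The list medians with vanillin, -0.02 and -0.09, were close to those of all genes.

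The sugar kinases act on the glucose that the transporters bring in. *HXK2* is in this list as well as the Snf1-Mig1 list, and the shares of all genes are those given there. Of 4 such genes, *HXK2* rose in both strains, and *HXK1* and the glucokinase gene *GLK1* fell in BY4741(*yrr1*Δ), with log2 fold changes of -1.95 and -1.64 (adjusted p = 0.021 and 0.017 from edgeR's test). In BY4741 their values were -0.35 and 0.25 (adjusted p = 0.685 and 0.709 from edgeR's test), and the interaction was -1.60 for *HXK1* and -1.89 for *GLK1*, which did not pass (adjusted p = 0.178 and 0.109 from edgeR's test). Of 15 other sugar transporter genes 9 were tested, and 0 passed in edgeR's test in any comparison. The largest values with vanillin in BY4741 were those of the maltose transporter gene *MAL31* (1.52, adjusted p = 0.153 from edgeR's test) and of *HXT11* (1.23, adjusted p = 0.090 from edgeR's test).

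Among 15 genes that glucose represses, as it does *HXT6* and *HXT7*, 1 rose and 2 fell with vanillin in BY4741, and 1 rose and 5 fell in BY4741(*yrr1*Δ). The matching shares of all genes are those given with the Snf1-Mig1 list. For BY4741 the median log2 fold change of the list was 0.25, above the -0.02 of all genes. For the deletion strain it was -0.11, below the 0.01 of all genes. Those that fell in both strains were *HSP12*, a small heat shock gene, with log2 fold changes of -4.02 and -5.72 (adjusted p = 0.00025 and 8.1e-05 from edgeR's test), and *CTT1*, the cytosolic catalase gene, with -2.94 and -3.44 (adjusted p = 0.011 and 0.0043 from edgeR's test). Both are known as general stress response genes. *JEN1*, the lactate transporter gene, rose in BY4741 by 1.62 (adjusted p = 0.012 from edgeR's test), and *ADR1*, an activator of glucose-repressed genes, rose in BY4741(*yrr1*Δ) by 1.32 (adjusted p = 0.014 from edgeR's test). *HXK1*, *GLK1* and the acetyl-CoA synthetase gene *ACS1* (-0.90, adjusted p = 0.033 from edgeR's test) also fell in BY4741(*yrr1*Δ). *HXK1* and *GLK1* are in the sugar kinase list as well, so their falls are the same as those given there. Between the strains and in the interaction, 0 genes of the Snf1-Mig1, kinase and glucose-repressed lists passed in edgeR's test.

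As a description of likeness, the genes outside the member list whose log2 CPM correlated most with *HXT1* over the 8 libraries were *ARO4* (Pearson r = 0.97), *RCK1* (0.97) and *SCW11* (0.97). For *HXT2* they were *SIS2* (0.95), YKR075C (0.94) and *CHS3* (0.91), for *HXT3* *IPT1* (0.99), *TAT1* (0.98) and *NCS6* (0.98), and for *HXT4* *CSR1* (0.96), *RPL30* (0.93) and *CHS7* (0.93). The 8 libraries fall into 2 media and these are the highest of many correlations, so no p is given. On log2 of FPKM plus 1, 1 of the 3 genes was kept for *HXT1* and 2 of 3 for each of *HXT2*, *HXT3* and *HXT4*.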

How the data were processed

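RNA was sequenced from 8 cultures, 2 in each of 4 groups of strain and medium. The authors deposited 1 table per library, with an expected count for each gene (estimated reads, not normalised and not always whole) and an FPKM value, scaled by gene length and library. The submitters' processing notes name the R64 build, and the aligner and the counting tool are not given in the sources used here. The authors' comparison tables (mean FPKM, log2 ratio and a Probability, with 6 mM vanillin in headers where the labels give 5 mM) were not used. All 5782 gene identifiers matched the R64 RefSeq annotation, which gave positions and sequences, and 0 columns of values were left unmapped.

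The expected counts, rounded to whole numbers, entered edgeR 4.0.16 under R 4.3.3 (TMM normalization, filterByExpr, quasi-likelihood test) in 1 model of the 4 groups without a block. Benjamini-Hochberg adjustment ran over 5506 genes, and a gene was called at an FDR of at most 0.05. The procedure was tested on simulated data. Standard errors and 95% intervals are from the same fit. Counts of *HXT6* and *HXT7* were also added into 1 gene and refitted. Library totals were 2195324 to 2453837 expected counts.

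Groups came from the labels. All members are named, and other genes only from 5 lists (those past an FDR of 0.05 or among the 3 largest changes of a list, with *MIG1* added after its values were seen) or as the 3 genes most correlated with *HXT1* to *HXT4*. The members and lists were chosen with earlier results of these data known. Alternatives were DESeq2 1.42.0, its size factors in edgeR, no filter on low counts, limma 3.58.1 on log2 of FPKM plus 1 or 0.1, the 4 libraries compared alone, a replicate block and each library left out in turn.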

Additional observations from a re-analysis of the deposited data

How the results depend on the processing

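With 2 libraries a group, leaving 1 out leaves a lone library that is assumed to vary like the other groups. The 2 called members with vanillin in BY4741 were 4 in DESeq2's Wald test (*HXT1*, *HXT5*, *HXT7* and *RGT2*; 5.27% of all genes), 1 without the filter on low counts (*HXT1*; 2.65%) and 0 to 2 with 1 library left out, with 0 without SD replicate 2 or either vanillin library of BY4741 (all genes 0.577% to 3.86%). The 4 called in BY4741(*yrr1*Δ) were 2 with only the 4 libraries compared (*HXT5* and *HXT7*; 5.21% of all genes) and 2 to 4 with 1 library left out (3.50% to 10.7%). Members past a fold change of 2 were 2 and 4 at an FDR of 0.05, against 0 and 0 at an FDR of 0.001. Of the alternatives for the log2 fold changes of the 10 members in 5 comparisons, 712 kept direction and side of the threshold, 25 lost the call, 3 gained one and 39 reversed. The reversals with 1 library left out concerned values that were not called. The cause of these shifts was not tested.

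The correlation of replicate differences between groups ran from -0.58 for the strains in SD to 0.18 for the media in BY4741(*yrr1*Δ). These values do not show how the cultures were paired, and the main fit had no replicate block. With the replicate number as a block, called members were 1 with vanillin in BY4741 (*HXT1*, with 1.80% of all genes called against 3.14% without the block) and 2 in BY4741(*yrr1*Δ) (*HXT5* and *HXT7*, with 7.26% against 11.2%). Under the block the log2 fold change of summed *HXT6* and *HXT7* was -2.95 with vanillin in BY4741 (adjusted p = 0.059 from edgeR's test, range over the alternatives 0.0066 to 0.329) and -0.088 between the strains with vanillin, and that of *HXT1* and *HXT4* between the strains in SD was -0.00090 and -0.38. A pairing of replicate 1 of each strain in SD with replicate 2 of the other, chosen after the negative correlation was seen, also called 0 members.

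By limma on log2 of FPKM plus 1 or 0.1, the strains with vanillin differed by -0.10 and -0.10 for the summed pair and by -0.026 and -0.036 for *HXT7*, and *HXT4* in SD by -0.14 and -0.14. With 1 library left out, the log2 fold change of the summed pair ran from -3.55 to -2.41 with vanillin in BY4741, from -1.46 to 0.93 between the strains with vanillin and from -1.95 to 0.44 in the interaction. Between the strains in SD it ran from -0.36 to 0.63 for *HXT1*, -0.77 to 0.47 for *HXT2*, -1.02 to 0.42 for *HXT3*, -0.79 to 0.54 for *HXT4*, -0.045 to 0.56 for *HXT5*, -0.56 to 0.75 for *HXT6* and -0.35 to 0.049 for *SNF3*. Between the strains with vanillin it ran from -0.37 to 0.94 for *HXT3*, -2.94 to 0.44 for *HXT4*, -1.72 to 1.31 for *HXT7*, -0.27 to 0.78 for *HXT8* and -0.31 to 0.67 for *SNF3*. With vanillin in BY4741(*yrr1*Δ) it ran from -0.90 to 1.84 for *HXT2*, -1.27 to 2.11 for *HXT4* and -0.94 to 0.38 for *HXT6*, and in BY4741 from -0.64 to 0.41 for *HXT8*. In the interaction it ran from -0.066 to 1.36 for *HXT1*, -0.20 to 1.45 for *HXT3*, -2.96 to 0.42 for *HXT4*, -2.21 to 0.82 for *HXT7* and -0.18 to 0.79 for *SNF3*.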
